A study of Mus musculus with 12 samples.

Results

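The segment difference of gene expression was followed here in mice labelled Bmpr1a cKO, as distal against proximal small intestine within that genotype. Its members were chosen by the labels alone: the 3 cKO distal and the 3 cKO proximal libraries, 6 of the 12 in the series, over all 17175 genes of the deposited table. The other 6 libraries, 3 WT distal and 3 WT proximal, entered the same fit and serve to show where the cKO differed. All 12 are bulk RNA libraries from the small intestine. A cKO is a conditional knockout, and Bmpr1a encodes BMPR1A, a type I receptor of the bone morphogenetic protein (BMP) family, so both cKO groups carry the altered receptor gene and segment is what separates them. The series describes its aim as relating BMP signals in the epithelium to villus length along the small intestine. The Cre driver, strain, age and sex of the mice, the exact positions sampled and whether a library came from 1 animal or a pool are not given in the sources used here. Libraries are named by genotype, segment and number, and the labels use one number (KO1 and so on) for a distal and a proximal library.

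The small intestine changes its work along its length. The proximal part, the duodenum and upper jejunum, takes up iron, calcium, sugars and fat and meets the bile and pancreatic juice, and the distal part, the ileum, recovers bile acids and vitamin B12 and houses more defensin-secreting Paneth cells. Transcription factors such as GATA4 and PDX1 proximally, and members of the HOX clusters distally, mark these regions in the mouse. BMP ligands come mostly from the mesenchyme and act on epithelial cells through receptors such as BMPR1A and SMAD proteins.

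Depth was 15225731 to 17722756 recovered reads in the cKO distal and 16661259 to 17388612 in the cKO proximal libraries. Values are read counts scaled per library, and as deposited they equal the count plus 1 divided by a size factor, so that a value near 1 stands for 0 reads. Fold changes are on the log2(value + 1) scale, which understates changes of low genes, distal over proximal, with a standard error (SE) and a Benjamini-Hochberg adjusted p from limma over all genes. A gene passed where this p was under 0.05, and "rose" and "fell" refer to the distal relative to the proximal segment. On principal components of the 6 cKO libraries, the first component (54.8% of the variance) placed the distal libraries at 55.3 to 62.8 and the proximal ones at -61.7 to -55.7, and on the second (18.7%) cKO distal 3 stood apart at -60.2. Mitochondrially encoded genes took 27.7% of the reads of cKO distal 3, and 9.75% to 14.8% of the other 5 cKO libraries. Uty, Eif2s3y, Ddx3y and Kdm5d, which lie on the Y chromosome, had 0 reads in the distal and the proximal cKO library numbered 1. Their summed reads were 1530 to 2390 in the cKO libraries numbered 2 and 3, and 1251 to 1912 in the WT libraries. The epithelial markers Epcam, Vil1, Krt8, Krt20, Cdh1, Cdh17 and Fabp2 were present in every cKO library and none passed, with Vil1, an actin-bundling protein of microvilli, at 29761 to 59564 in the distal and 34667 to 41958 in the proximal libraries (log2 fold change 0.15, adjusted p = 0.858). Alpi, the remaining gene of the epithelial set chosen beforehand, fell distally, with its values given below among proximal enterocyte genes. In bulk tissue, fewer cells of a type and less RNA per cell cannot be told apart. Whether the libraries of one group are separate animals is not stated in the labels, so p-values reflect only how these samples vary, in part perhaps for technical reasons.

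The receptor gene itself was lower in the distal segment. Bmpr1a (chromosome 14, 34410734 to 34503341, mm10) had 511, 668 and 486 in cKO distal libraries, against 911, 833 and 1087 in cKO proximal libraries. The groups did not overlap, as in 30.1% of all genes. The log2 fold change was -0.77 with an SE of 0.19 (limma adjusted p = 0.0202). In WT the averages were 532 ± 96.6 in distal and 940.1 ± 145 in proximal libraries (SD, n = 3 each, log2 fold change -0.82). The cKO call ended when cKO distal 1, cKO distal 3, cKO proximal 1 or cKO proximal 3 was left out (adjusted p up to 0.0936). A count over the whole gene includes exons outside any deleted part, so it checks neither the deletion nor the labels.

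Of the 17175 genes, 1806 (10.5%) passed between the segments of cKO intestine, 714 higher (4.16%) and 1092 lower (6.36%) in the distal segment. At least 2-fold changes were found in 568 of the higher and 799 of the lower genes, and at least 16-fold changes in 46 and 57. The 3 distal and 3 proximal values did not overlap in 1790 of the genes that passed and in 5167 of all genes (30.1%). A lack of overlap in a gene that passed therefore adds little to its call. Over all genes the median log2 fold change was -0.02. The count fell to 1031 when cKO proximal 1 was left out and to 1148 without cKO proximal 3, and was 1300 to 1545 without any of the other 4 cKO libraries. With the number shared by a distal and a proximal library as a block it was 2601, while the main fit held no term for that number.

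Genes of nutrient digestion and uptake were among the largest differences. Fabp6, the ileal bile acid binding protein, had 65296, 90664 and 24901 in cKO distal libraries, against 12.1, 5.3 and 3.73 in cKO proximal libraries. Plb1, a brush border phospholipase, had 21345, 11279 and 4392 in cKO distal libraries, against 8.08, 1.06 and 4.66 in cKO proximal libraries. In both genes every distal library stood far above every proximal one, and a lack of overlap was a condition for naming them here. At the opposite end, Akp3, an alkaline phosphatase of the proximal intestine, had 51.9, 141 and 71.2 in cKO distal libraries, against 51021, 101533 and 64361 in cKO proximal libraries. Tmprss15, the enteropeptidase that activates trypsinogen, had 5.3, 9.13 and 3.19 in cKO distal libraries, against 3128, 3791 and 4042 in cKO proximal libraries. The log2 fold changes of Fabp6, Plb1, Akp3 and Tmprss15 were 12.82 (SE 1.07), 11.07 (SE 0.78), -9.73 (SE 1.12) and -9.14 (SE 0.73), with limma adjusted p of 3.29e-06, 9.08e-07, 5.76e-05 and 2.54e-06.

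**Figure D1:**
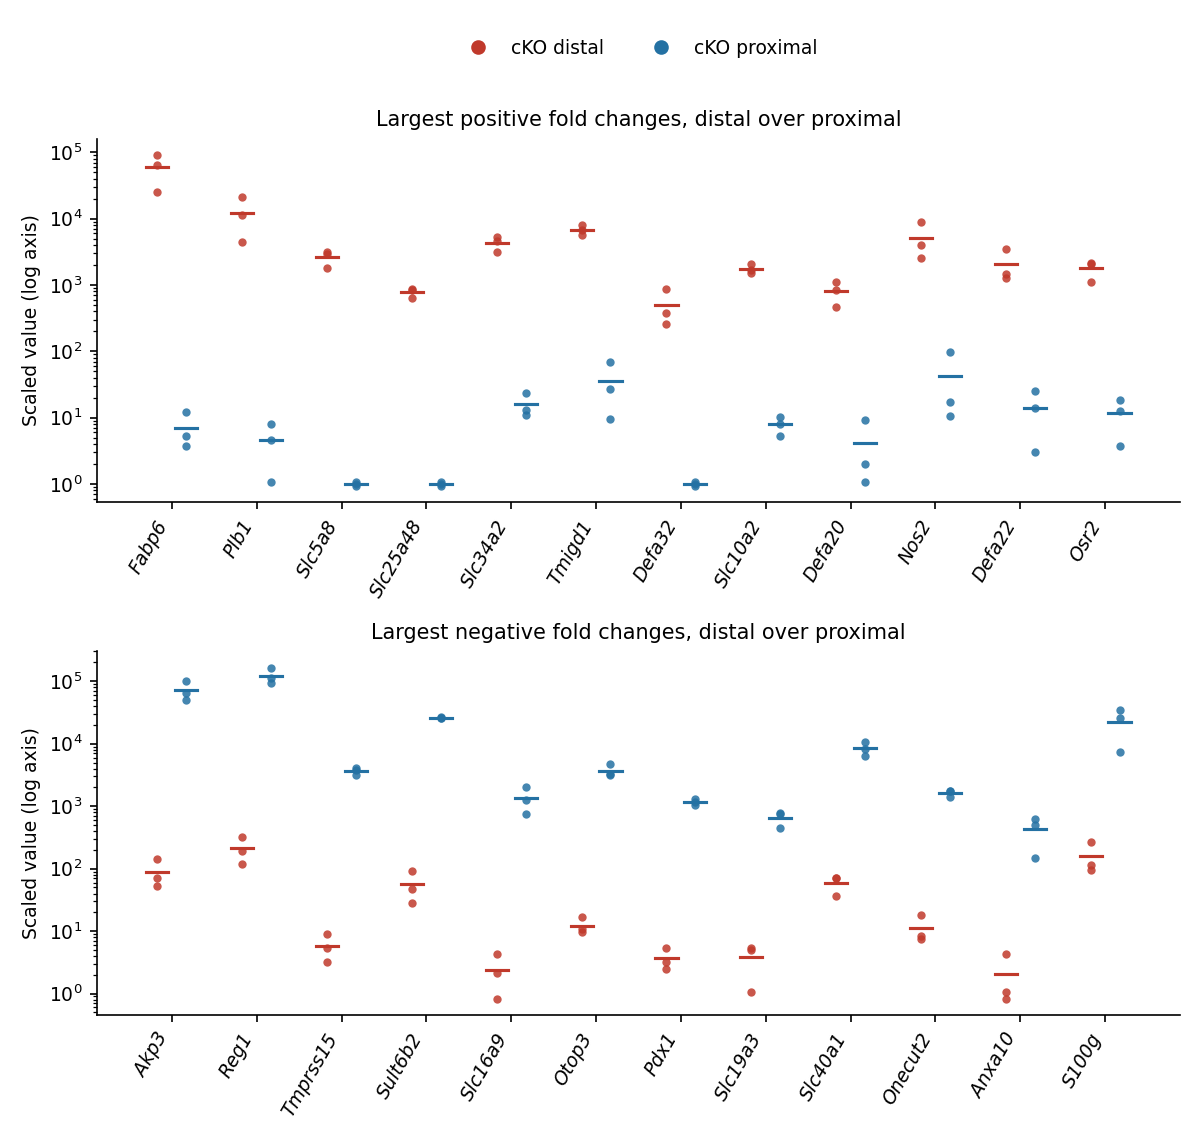
Scaled values (log axis) of the 12 passing genes named for large positive and the 12 named for large negative fold changes, with cKO distal libraries in red left of cKO proximal libraries in blue. Points are libraries (n = 3 per group) and lines are means, and by the choice of genes the groups overlap in none of them.

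By the same rule of fold change, 7 other genes outside the defensins were higher distally. Slc5a8, a sodium-coupled transporter of short-chain fatty acids, had 2943, 3086 and 1796 in cKO distal libraries, against 0 reads in each cKO proximal library, at least 869-fold higher when set against a floor of 3 reads per library. Slc25a48, a mitochondrial carrier, had 0 reads in the cKO proximal libraries too and 642, 846 and 872 in the distal ones, at least 262-fold higher. The others were Slc34a2, a sodium-phosphate cotransporter (log2 fold change 8.03), Tmigd1, a membrane protein of the brush border (7.91), Slc10a2, the ileal bile acid transporter (7.65), Nos2, the inducible nitric oxide synthase (7.34), and the transcription factor gene Osr2 (7.31). Among the 10 other genes lower distally were Sult6b2, a sulfotransferase (-8.99), the transporter genes Slc16a9 (-8.66) and Slc19a3, which carries thiamine (-7.23), the proton channel gene Otop3 (-8.15), the annexin gene Anxa10 (-7.06) and Reg1, a secreted lectin (-9.26). Each of the 24 calls held when any 1 of the 6 cKO libraries was left out (highest limma adjusted p = 0.00096). The 24 were chosen for large fold changes without overlap in these same libraries, so this outcome was likely beforehand. Genes of the Reg, defensin and alkaline phosphatase families resemble their relatives in sequence, so the division of their reads among members is uncertain.

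The start-site windows of some of these genes are shown for their matches to motifs of intestinal regulators and for the likeness of the defensin genes. They run from 250 bases before to 50 after the start, from RefSeq on GRCm38.p6, 5′ to 3′ on the gene's strand, and 20 of the 24 genes matched a window. Capitals mark matches on either strand to the GATA factor motif AGATAA or TGATAA and to the CDX motif TTTATNG, whose reverse form can overlap a TATA box. The Slc10a2 window is chr8:5105238-5105537 on the minus strand, that of Plb1 chr5:32238834-32239133 (plus), that of Fabp6 chr11:43601513-43601812 (minus), that of Tmprss15 chr16:79091048-79091347 (minus), that of Sult6b2 chr6:142804417-142804716 (minus), and those of Defa20 and Defa22 chr8:21509008-21509307 (plus) and chr8:21162027-21162326 (plus).
Slc10a2: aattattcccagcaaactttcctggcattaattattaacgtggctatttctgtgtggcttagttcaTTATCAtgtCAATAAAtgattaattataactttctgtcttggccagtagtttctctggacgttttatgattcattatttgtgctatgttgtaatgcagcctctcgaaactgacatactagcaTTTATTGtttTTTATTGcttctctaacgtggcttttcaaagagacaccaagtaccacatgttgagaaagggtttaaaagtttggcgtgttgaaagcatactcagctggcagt
Plb1: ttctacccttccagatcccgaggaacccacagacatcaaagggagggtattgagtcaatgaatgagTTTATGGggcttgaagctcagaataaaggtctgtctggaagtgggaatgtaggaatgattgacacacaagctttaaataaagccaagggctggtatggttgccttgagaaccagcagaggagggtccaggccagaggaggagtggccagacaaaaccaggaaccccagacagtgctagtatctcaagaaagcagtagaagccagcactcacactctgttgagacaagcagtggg
Fabp6: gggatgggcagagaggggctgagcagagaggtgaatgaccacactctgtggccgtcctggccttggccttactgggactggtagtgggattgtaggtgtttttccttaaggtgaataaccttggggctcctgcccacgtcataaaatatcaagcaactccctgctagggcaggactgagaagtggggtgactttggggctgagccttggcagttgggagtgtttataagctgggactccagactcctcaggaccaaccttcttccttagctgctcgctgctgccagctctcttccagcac
Tmprss15: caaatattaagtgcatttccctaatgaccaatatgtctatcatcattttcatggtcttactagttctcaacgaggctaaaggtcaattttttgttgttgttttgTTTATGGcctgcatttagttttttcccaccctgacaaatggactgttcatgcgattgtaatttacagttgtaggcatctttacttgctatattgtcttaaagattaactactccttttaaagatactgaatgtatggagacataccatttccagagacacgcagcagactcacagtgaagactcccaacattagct
Sult6b2: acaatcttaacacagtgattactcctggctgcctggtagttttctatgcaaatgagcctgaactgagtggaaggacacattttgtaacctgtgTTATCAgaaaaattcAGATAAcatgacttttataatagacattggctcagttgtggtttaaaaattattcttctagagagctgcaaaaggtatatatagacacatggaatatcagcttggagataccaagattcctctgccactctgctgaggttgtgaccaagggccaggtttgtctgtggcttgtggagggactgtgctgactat
Defa20: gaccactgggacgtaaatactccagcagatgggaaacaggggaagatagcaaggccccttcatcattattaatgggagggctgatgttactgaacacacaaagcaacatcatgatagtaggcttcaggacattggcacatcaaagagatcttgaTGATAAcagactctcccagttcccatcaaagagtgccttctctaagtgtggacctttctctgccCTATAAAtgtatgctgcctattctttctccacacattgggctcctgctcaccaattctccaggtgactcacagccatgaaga
Defa22: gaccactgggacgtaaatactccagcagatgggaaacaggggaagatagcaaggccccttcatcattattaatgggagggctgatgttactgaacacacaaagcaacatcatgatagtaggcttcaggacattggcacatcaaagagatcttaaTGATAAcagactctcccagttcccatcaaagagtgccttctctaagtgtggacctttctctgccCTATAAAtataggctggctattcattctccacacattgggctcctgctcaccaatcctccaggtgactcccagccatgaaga

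The Slc10a2 window held 3 matches to the CDX motif and 1 to the GATA motif, and the Sult6b2 window 2 to the GATA motif. Plb1 and Tmprss15 each had 1 CDX match although one gene was higher and the other lower distally, and the Fabp6 window had neither motif. Over the first window of each of 12782 measured genes, 11.8% held the GATA motif and 7.75% the CDX motif. Among genes that passed, the GATA motif was in 76 of 511 windows of the higher (14.9%) and 127 of 859 of the lower genes (14.8%), and the CDX motif in 54 (10.6%) and 82 (9.55%). An HNF4 motif, CAAAGTCCA, was in 4 of the 511 higher (0.783%) and 12 of the 859 lower genes (1.4%), against 0.493% of all windows. The windows of Defa20 and Defa22 differed at 7 of 300 bases, and those of Defa32 and Defa20 at 0 of 298 when shifted by 2 bases. A match is a description of these letters and not of a bound site.

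Of 53 measured transcription factor genes of the intestine and its regions, 13 rose, 9 fell and 31 did not pass in cKO (median log2 fold change -0.14), and in WT 9 rose and 14 fell (median -0.11). The counts of this and the following lists stand beside 10.5% of all genes called in cKO and 24.1% called in WT. Pdx1, a homeobox factor of duodenum and pancreas, had 5.3, 2.49 and 3.19 in cKO distal libraries, against 1151, 1300.0 and 1034 in cKO proximal libraries. Onecut2, an HNF6 relative, had 7.42, 18.3 and 8.51 in cKO distal libraries, against 1416, 1738 and 1736 in cKO proximal libraries. Osr2, a zinc finger factor, had 2064, 2161 and 1122 in cKO distal libraries, against 18.2, 12.7 and 3.73 in cKO proximal libraries. In these 3 genes every library of the high group had above 1000 and every library of the low group under 20. All 3 are among the genes named for large fold changes, for which a lack of overlap was a condition.

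GATA factor genes also fell, though less steeply. Gata4, which specifies the jejunum in the mouse, had 1442, 1172 and 713 in cKO distal libraries, against 3664, 3829 and 3907 in cKO proximal libraries (log2 fold change -1.83 with an SE of 0.23, limma adjusted p = 0.000153). Gata6, its close relative, averaged 1114 ± 85.9 in cKO distal and 2292 ± 325 in cKO proximal libraries (SD, n = 3 each, log2 fold change -1.03). Other factors that fell were Meis2, a HOX cofactor (-4.34), Pparg, the fat-sensing nuclear receptor (-2.53), and Nr1i3, the xenobiotic receptor CAR (-2.05). The call of Onecut3 (-2.04) was lost without cKO distal 1, cKO distal 2, cKO proximal 2 or cKO proximal 3 (adjusted p up to 0.099).

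The HOX genes that rose were mostly of the Hoxb cluster. Hoxb9 had 75.2, 63.1 and 166 in cKO distal libraries, against 1.01, 1.06 and 1.86 in cKO proximal libraries (log2 fold change 5.36 with an SE of 0.44, limma adjusted p = 3.04e-06), and Hoxb6 rose by 5.22 on that scale. Hoxb8 and Hoxb7 were without reads in cKO proximal libraries and at least 15.8-fold and 14.5-fold higher in the distal ones. Hoxb5 rose by 2.83 (limma adjusted p = 0.00147). Antisense and overlapping transcripts of this cluster could share reads, and whether the counting used strand is not given in the sources used here. Nr1h4, which encodes FXR, had 2264, 1887 and 1182 in cKO distal libraries, against 603, 693 and 560.1 in cKO proximal libraries. The groups did not overlap, as in 1790 of the 1806 genes that passed. Zfp503 rose by 2.02 (limma adjusted p = 0.000207), and in WT its log2 fold change was -0.22.

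The calls of 3 other factors that rose did not hold when single libraries were left out. The pioneer factor gene Foxa1 (1.45) lost its call without cKO proximal 1 (adjusted p = 0.0556), and the caudal factor gene Cdx1 (0.66) without cKO distal 1, cKO distal 2, cKO proximal 1 or cKO proximal 3 (adjusted p up to 0.0858). Hoxc6, without reads in any cKO proximal library (at least 2.06-fold higher), lost its call when any 1 of the 6 cKO libraries was left out (adjusted p up to 0.124).

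**Figure D2:**
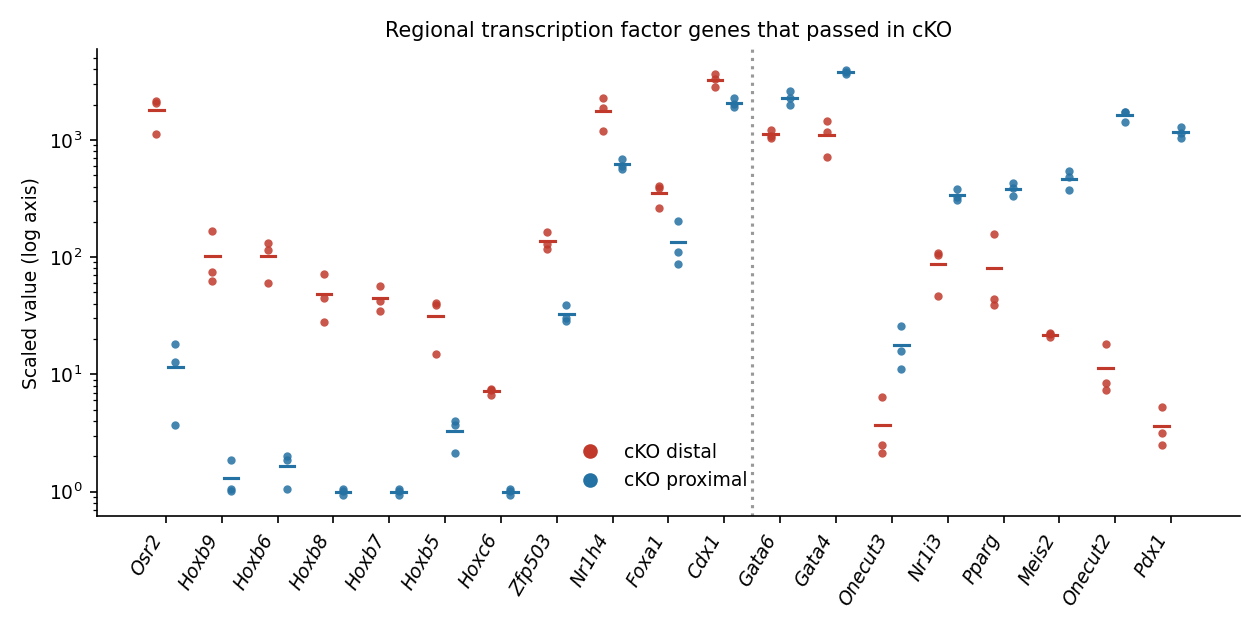
Scaled values (log axis) of 19 regional transcription factor genes that passed in cKO, ordered by fold change, with cKO distal libraries in red left of cKO proximal libraries in blue, points for libraries (n = 3 per group) and lines for means. The 11 genes left of the dotted line were higher distally and the 8 right of it lower, and Hoxb7, Hoxb8 and Hoxc6 had 0 reads in the 3 cKO proximal libraries.

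The bile acid carriage genes Slc10a2, Fabp6 and Slc51a rose distally. Of 18 measured genes of bile acid uptake and the FXR axis, 5 rose, 2 fell and 11 did not pass (median log2 fold change 0.25), and in WT 4 rose and 6 fell (median -0.39). Slc10a2, which imports bile acids at the brush border, had 1703, 1504 and 2046 in cKO distal libraries, against 8.08, 5.3 and 10.3 in cKO proximal libraries. Slc51a, a subunit of the basolateral exporter, had 20741, 15602 and 8607 in cKO distal libraries, against 3293, 4573 and 2979 in cKO proximal libraries. Genes of import, of binding (Fabp6) and of export each had groups that did not overlap, as had 1790 of the 1806 genes that passed. Fgf15, the hormone that carries the bile acid signal to the liver, had 124, 146 and 542 in cKO distal libraries, against 0 reads in each cKO proximal library (at least 89.9-fold higher). The 2 genes that fell were Nr0b2, the FXR-induced corepressor SHP, with 3.18, 9.96 and 31.9 in cKO distal libraries, against 110.1, 189.6 and 245 in cKO proximal libraries, and Cyp3a11, a bile acid and drug hydroxylase (log2 fold change -2.18). Limma adjusted p was 0.00424 for Slc51a, 2.15e-05 for Fgf15, 0.00134 for Nr0b2 and 0.00103 for Cyp3a11.

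The uptake receptor for vitamin B12 was higher distally as well. Of 9 measured genes of B12 uptake, 3 rose and 0 fell in cKO, and 0 passed in WT by limma (3 at an unadjusted p under 0.05, 1 by edgeR and 2 by DESeq2). Cubn, the receptor for B12 bound to intrinsic factor, had 10556, 5531 and 7984 in cKO distal libraries, against 528, 469 and 827 in cKO proximal libraries (log2 fold change 3.71 with an SE of 0.56, limma adjusted p = 0.000598). In WT it averaged 4557 ± 4384 in distal and 1859 ± 974 in proximal libraries (SD, n = 3 each, log2 fold change 1.06). Amn, the membrane partner of cubilin, had 15329, 4713 and 8109.8 in cKO distal libraries, against 1908, 1792 and 1642 in cKO proximal libraries. Abcd4, which moves B12 out of lysosomes, rose by 1.61 (limma adjusted p = 0.00778). The difference of the 3 segment effects between cKO and WT did not pass (limma adjusted p = 0.142, 0.54 and 0.317 for Cubn, Amn and Abcd4).

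Several iron uptake and export genes fell distally. Of 18 measured genes of iron and heme handling, 8 fell and 1 rose in the cKO distal segment (median -0.65), and in WT 12 fell and 2 rose (median -1.19). Slc40a1, the iron exporter ferroportin, had 71, 71.4 and 36.2 in cKO distal libraries, against 6418, 10774 and 8262 in cKO proximal libraries. Cybrd1, a ferric reductase of the brush border, had 9.54, 6.64 and 17 in cKO distal libraries, against 346, 323 and 737 in cKO proximal libraries. Slc46a1, a transporter of folate and heme, had 412, 248 and 207 in cKO distal libraries, against 9342, 9631 and 9214 in cKO proximal libraries. Ncoa4, the ferritin cargo receptor, and Epas1, the hypoxia factor that drives iron uptake genes in mouse enterocytes, fell by 3.41 and 2.16 on the log2 scale. Among these 5 genes limma adjusted p ranged from 1.23e-09 for Slc40a1 to 4.23e-05 for Epas1.

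The calcium genes S100g and Trpv6 fell and the phosphate transporter gene Slc34a2 rose. Of 13 measured genes of calcium and phosphate absorption, 1 rose, 3 fell and 9 did not pass (median -0.64), and in WT 2 rose and 8 fell (median -1.26). S100g, the calcium-buffering calbindin of enterocytes, had 270.2, 116 and 95.7 in cKO distal libraries, against 26051, 34318 and 7309.8 in cKO proximal libraries. Trpv6, the apical calcium channel, had 0 reads in the cKO distal libraries, against 55.5, 113 and 15.8 in cKO proximal libraries, at least 20.5-fold lower. In WT, Trpv6 averaged 3.84 ± 4.68 in distal and 1172 ± 115 in proximal libraries (SD, n = 3 each). Slc34a2 had 4539.8, 5206 and 3119.7 in cKO distal libraries, against 11.1, 23.3 and 13 in cKO proximal libraries. The calcium pump gene Atp2b1 (-1.05) lost its call without cKO distal 2, cKO distal 3, cKO proximal 1, cKO proximal 2 or cKO proximal 3 (adjusted p up to 0.131).

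Genes of proximal enterocytes fell or did not pass. Of 48 measured proximal enterocyte genes, 28 fell and 0 rose in cKO (median -1.9, and 23 to 30 fell when any 1 cKO library was left out), and in WT 42 fell and 0 rose (median -3.17). Papss2, which makes the sulfate donor for sulfotransferases, had 3090.5, 2926 and 2567 in cKO distal libraries, against 56059, 69302 and 52917 in cKO proximal libraries. Alpi, an intestinal alkaline phosphatase, had 5938, 4861 and 5033 in cKO distal libraries, against 64277, 87517 and 68082 in cKO proximal libraries. Of 38 distal enterocyte genes, 15 rose and 2 fell in cKO (median 0.89, and 17 rose and 4 fell with the number shared by a distal and a proximal library as a block), and in WT 12 rose and 6 fell (median 0.44). The 2 that fell were Nr0b2 and Ephx2, an epoxide hydrolase (log2 fold change -1.75), the second chosen after its values were seen.

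Fat handling genes fell or did not pass. Of 32 measured genes of fat absorption and chylomicrons, 12 fell and 0 rose in cKO (median -0.52), and in WT 20 fell and 0 rose (median -1.22). Apoc2, the cofactor of lipoprotein lipase, had 2341, 1833 and 2955 in cKO distal libraries, against 19711, 16284 and 23327 in cKO proximal libraries (log2 fold change -3.07 with an SE of 0.28, limma adjusted p = 6.68e-06). Fabp1, a fatty acid binding protein, had 12473, 8547 and 5396 in cKO distal libraries, against 55653, 57807 and 41554 in cKO proximal libraries. The cholesterol receptor gene Scarb1 fell by 3.3 on the log2 scale and the fatty acid activating enzyme gene Slc27a2 by 2.48. Without cKO proximal 3 or without cKO distal 2, 6 of the 32 fell.

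Fatty acid oxidation and ketogenesis genes followed, with 9 of 27 lower and 0 higher in cKO (median -0.42), and 22 lower and 0 higher in WT (median -1.17). Pdk4, the kinase that spares glucose by inhibiting pyruvate dehydrogenase, had 81.6, 78.8 and 171 in cKO distal libraries, against 725, 730.0 and 874 in cKO proximal libraries. Cyp4a10, a fatty acid hydroxylase, had 3.18, 0.83 and 1.06 in cKO distal libraries, against 91.9, 186 and 251 in cKO proximal libraries. Acadl and Acaa2, enzymes of mitochondrial oxidation, fell by 1.57 and 2.12 on the log2 scale. Distal and proximal values of these 4 genes did not overlap, as in 1790 of the 1806 genes that passed.

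Of 25 measured genes of sugar digestion and fructose use, 2 fell and 0 rose in cKO (median -0.44), a share of 8% that is near the 10.5% of all genes, and in WT 19 fell and 0 rose (median -1.44). Slc2a2, the basolateral glucose and fructose transporter, had 3534, 2318 and 2229 in cKO distal libraries, against 11466, 12433 and 11925 in cKO proximal libraries (log2 fold change -2.18, limma adjusted p = 0.0151). The call of Slc2a2 ended without cKO distal 2 or cKO distal 3 (adjusted p up to 0.0551). The list count was 4 lower without cKO distal 1, 1 lower without any of the 3 cKO proximal libraries, 0 without cKO distal 2, and 1 higher with 0 lower without cKO distal 3, and 5 lower with the block. The difference of the segment effects between cKO and WT passed for 0 of the 25 genes by limma (10 at an unadjusted p under 0.05, 0 by edgeR and 3 by DESeq2).

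Retinoid metabolism had 11 of 28 genes lower and 1 higher in cKO (median -0.31) and the same counts in WT (median -0.49). Rbp2, which binds retinol inside enterocytes, had 21453, 13305 and 15769.7 in cKO distal libraries, against 84811, 78649 and 76052 in cKO proximal libraries. Lrat, which esterifies retinol, had 51.9, 44 and 31.9 in cKO distal libraries, against 376, 252 and 199 in cKO proximal libraries. The dehydrogenase genes Adh1, Adh7 and Rdh10 fell by 2.49, 2.92 and 1.64 on the log2 scale (limma adjusted p = 9.06e-05, 0.00155 and 6.74e-05).

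By number of genes, in lists of unlike size, drug and xenobiotic enzymes had the most lower distally after the proximal enterocyte list. Of 45 measured, 23 fell and 1 rose in cKO (median -1.24), and in WT 37 fell and 0 rose (median -2.68). Cyp2c29, a cytochrome P450, had 21.2, 11.6 and 37.2 in cKO distal libraries, against 701, 1297 and 1088 in cKO proximal libraries. Its relative Cyp2c66 fell by 4.14 on the log2 scale. The glutathione transferase gene Gsta4 had 1294, 816 and 1964 in cKO distal libraries, against 10639, 14327 and 11999.7 in cKO proximal libraries. These families hold close relatives, so reads may be divided wrongly among their members. Nr1i3, the receptor that induces many of these enzymes, fell as given above.

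Some cholesterol synthesis genes rose distally. Of 24 measured, 9 rose and 1 fell in cKO (median 0.67), and in WT 13 rose and 1 fell (median 0.75). Sqle, squalene epoxidase, had 3256, 2298 and 1614 in cKO distal libraries, against 581, 844 and 575 in cKO proximal libraries (log2 fold change 1.81 with an SE of 0.27, limma adjusted p = 0.000508). The enzyme genes Mvd and Fdft1 rose by 1.43 and 1.1. The gene that fell, Insig1, encodes the protein that holds the pathway's activator in the endoplasmic reticulum (-1.54). Without cKO proximal 3 the list had 4 higher and 1 lower, and without cKO distal 1 it had 5 higher and 1 lower.

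Among peptidases and amino acid transporters, 6 of 28 rose and 1, Tmprss15, fell (median 0.6), and in WT 6 rose and 7 fell (median -0.22). Naaladl1, a brush border peptidase, had 121388, 59215 and 61609 in cKO distal libraries, against 3858, 3320.4 and 1311 in cKO proximal libraries. Mep1a, a subunit of meprin, had 22964, 14937 and 15457 in cKO distal libraries, against 2306, 1868 and 1776 in cKO proximal libraries. Slc1a1, a glutamate transporter, rose by 4 and Xpnpep2, a proline-specific aminopeptidase, by 3.14 (limma adjusted p = 2.32e-05 and 0.00019). The groups of these 4 genes did not overlap, as in 1790 of the 1806 genes that passed.

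Ion and acid-base genes divided, with 6 of 27 higher and 5 lower in cKO (median -0.25), and 2 higher and 12 lower in WT (median -0.66). Car2, the cytosolic carbonic anhydrase, had 79.5, 60.6 and 97.8 in cKO distal libraries, against 1770.3, 3541 and 2275 in cKO proximal libraries. Slc4a7, a bicarbonate cotransporter, had 949, 748 and 1026 in cKO distal libraries, against 9182, 14733 and 9982 in cKO proximal libraries. The membrane carbonic anhydrase gene Car12 ran the other way, with 206, 301 and 228 in cKO distal libraries, against 12.1, 27.5 and 17.7 in cKO proximal libraries, and Car9 fell by 2.09 on the log2 scale. The list had 2 higher and 4 lower without cKO proximal 3 or cKO distal 2, and 3 higher and 4 lower without cKO distal 3, and 6 higher and 8 lower with the block.

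**Figure D3:**
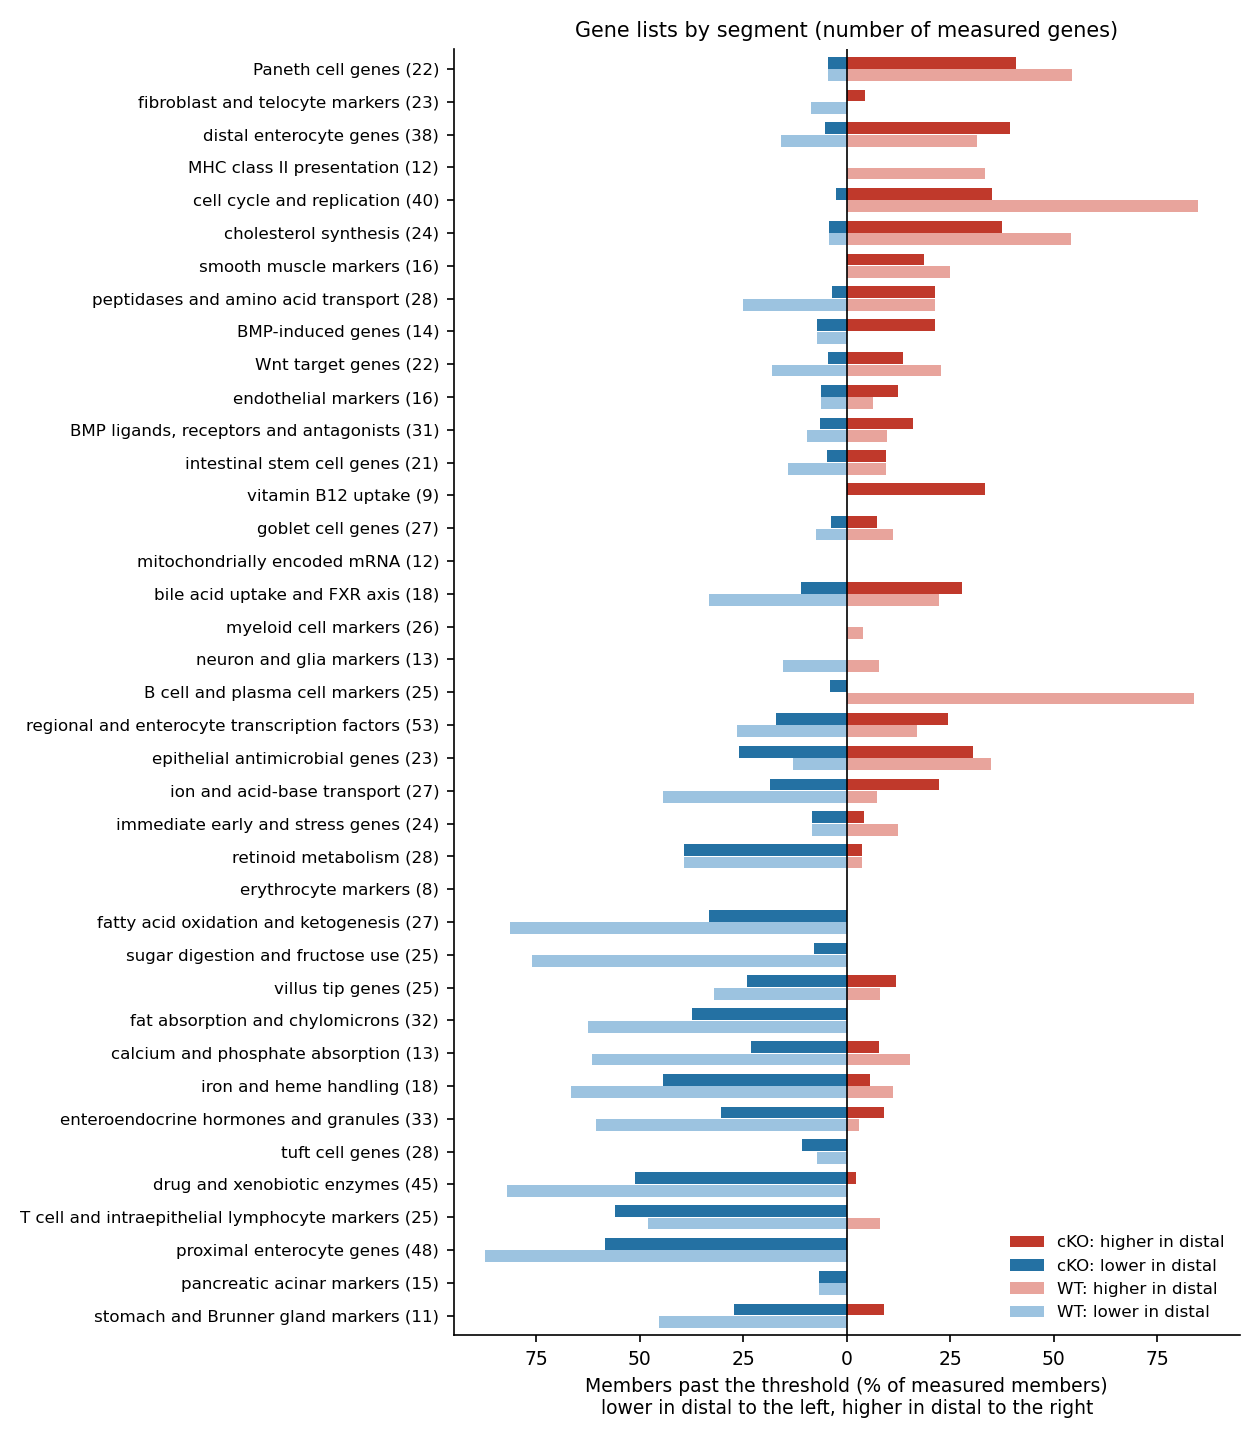
Share of measured members (number in brackets) of each gene list that passed, lower in distal to the left and higher in distal to the right, with cKO in dark bars above WT in light bars, red for higher and blue for lower, ordered by the median log2 fold change in cKO, where of all genes 4.16% were higher and 6.36% lower in cKO and 11.9% and 12.2% in WT. Proximal enterocyte genes had 28 of 48 lower in cKO and 42 of 48 in WT, and B cell and plasma cell markers 0 of 25 higher in cKO and 21 of 25 in WT.

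Hormone genes ran in both directions. Of 33 measured enteroendocrine genes, 3 rose and 10 fell in cKO (median -0.84), and in WT 1 rose and 20 fell (median -1.5). Ghrl, the hunger hormone ghrelin, had 40.3, 39 and 36.2 in cKO distal libraries, against 379, 455 and 505 in cKO proximal libraries. Gip, a glucose-dependent incretin, had 723, 743 and 384 in cKO distal libraries, against 3844, 3158 and 8882 in cKO proximal libraries. Cck, cholecystokinin, which drives bile and enzyme release, had 175, 211 and 156 in cKO distal libraries, against 1156, 1311 and 2239.6 in cKO proximal libraries. As in 1790 of the 1806 genes that passed, the groups did not overlap, and all 3 were lower in every distal library. The hormone genes Nts and Pyy ran against them. Nts, neurotensin, had 279.7, 354 and 314 in cKO distal libraries, against 19.2, 15.9 and 23.3 in cKO proximal libraries. Pyy, peptide YY, had 74.2, 60.6 and 89.3 in cKO distal libraries, against 2.02, 2.12 and 6.52 in cKO proximal libraries. Limma adjusted p was 1.73e-06 for Ghrl, 6.74e-05 for Gip, 9.54e-06 for Cck, 2.29e-06 for Nts and 6.6e-06 for Pyy.

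Some Paneth cell genes, defensins among them, rose distally. Of 22 measured, 9 rose and 1 fell in cKO (median 1.97, and 6 rose and 0 fell without cKO proximal 3, and 14 rose and 2 fell with the block), and in WT 12 rose and 1 fell (median 2.06). Defa22, an alpha-defensin, had 1270.3, 1440.4 and 3454 in cKO distal libraries, against 3.03, 13.8 and 25.2 in cKO proximal libraries. Defa21 had 1339, 1565 and 3772 in cKO distal libraries, against 13.1, 32.8 and 8.39 in cKO proximal libraries. Ang4, a bactericidal ribonuclease, had 269, 266 and 1079 in cKO distal libraries, against 28.3, 59.3 and 36.3 in cKO proximal libraries. In each of these 3 genes all distal values lay above all proximal ones, and 1790 of the 1806 genes that passed had no overlap either. Of the cKO libraries, cKO distal 3, which had the highest mitochondrial share, was the highest in each. Over all genes, a fit with the mitochondrial share as a covariate called 1758 in cKO, 767 higher and 991 lower. Without the covariate 1806 were called, 714 higher and 1092 lower, and 6 of 167 named genes fell short with it. These totals are not results for the Paneth cell genes. The cause of the high values in cKO distal 3 was not tested. Defa20 and Defa32 rose by 7.57 and, with no reads in any cKO proximal library, at least 165-fold. The start-site windows of Defa20 and Defa32, of which the first is printed above, are identical over 298 bases, and counts of single defensin genes are uncertain.

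Other antimicrobial genes of the epithelium moved both ways, with 7 of 23 higher and 6 lower in cKO (median -0.17, and 6 higher and 2 lower without cKO proximal 3), and 8 higher and 3 lower in WT (median 0.66). Reg3g, a lectin that kills Gram-positive bacteria, had 147619, 98393 and 35105 in cKO distal libraries, against 5570.4, 4861 and 7785 in cKO proximal libraries. Nos2 had 8753, 3945 and 2569 in cKO distal libraries, against 17.2, 10.6 and 98.8 in cKO proximal libraries. The hydrogen peroxide producing oxidase gene Duox2 had 7527, 3679.8 and 3477 in cKO distal libraries, against 471, 165 and 493 in cKO proximal libraries. Saa1, serum amyloid A, had 269, 229.8 and 11.7 in cKO distal libraries, against 1.01, 1.06 and 3.73 in cKO proximal libraries. Reg1, the family member of the opposite segment, had 193, 324 and 118 in cKO distal libraries, against 112621, 164394 and 92586 in cKO proximal libraries. No distal library of these 5 genes overlapped a proximal one, as in 1790 of the 1806 genes that passed.

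The goblet and tuft cell lists had 11.1% and 10.7% of their genes called in cKO, near the 10.5% of all genes. In the goblet cell list 2 of 27 rose and 1 fell in cKO (median 0.33), and in WT 3 rose and 2 fell (median -0.16). Guca2a, guanylin, a peptide that regulates fluid secretion, had 22528, 14449 and 23472 in cKO distal libraries, against 1526, 904 and 1767 in cKO proximal libraries. Tff2, a trefoil peptide of stomach and Brunner glands, fell, with 1.06, 0.83 and 2.13 in cKO distal libraries, against 52.5, 139 and 36.3 in cKO proximal libraries. The tuft cell list had 3 of 28 lower and 0 higher (median -0.94), and 1 lower and 0 higher without any of cKO proximal 1, cKO proximal 3, cKO distal 1 and cKO distal 2, 9 lower and 0 higher with the block, and in WT 2 fell and 0 rose (median -0.91). The signalling gene Lrmp had 212, 216 and 129 in cKO distal libraries, against 602, 356 and 494 in cKO proximal libraries.

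In cKO 28.6% of the BMP-induced genes, 22.6% of the BMP ligand, receptor and antagonist genes and 18.2% of the Wnt target genes passed, against 10.5% of all genes. Of 14 measured BMP-induced genes, 3 rose and 1 fell in cKO (median 0.6, and 1 rose and 1 fell without cKO proximal 1 or cKO distal 3), and in WT 0 rose and 1 fell (median -0.08). The difference of the segment effects passed for 0 of the 14 by limma (3 at an unadjusted p under 0.05, 1 by edgeR and 1 by DESeq2). Their summed level was 1577 to 1658 in cKO distal and 1706 to 1870 in cKO proximal libraries. In WT it was 3802 to 5086 in distal and 6052 to 7010 in proximal libraries. Id3, an inhibitor of bHLH factors, had 253, 279 and 233 in cKO distal libraries, against 116, 155 and 137 in cKO proximal libraries (log2 fold change 0.91 with an SE of 0.17, limma adjusted p = 0.00312). Sp5, which is also a Wnt target, had 113, 129 and 58.5 in cKO distal libraries, against 511, 730.0 and 538 in cKO proximal libraries. Of 31 BMP ligand, receptor and antagonist genes, 5 rose and 2 fell in cKO (median 0.41, and 4 rose and 0 fell without cKO proximal 3 or cKO distal 1, and 9 rose and 4 fell with the block), and in WT 3 rose and 3 fell (median 0.05). Nbl1, a secreted BMP antagonist, had 1646, 1335 and 723 in cKO distal libraries, against 168, 209 and 99.7 in cKO proximal libraries. The ligand gene Bmp2 had 1869, 1318 and 1371 in cKO distal libraries, against 532, 709 and 598 in cKO proximal libraries. Bmp4, a ligand made mostly by mesenchyme, had 78.4, 130.3 and 39.3 in cKO distal libraries, against 4.04, 2.12 and 9.32 in cKO proximal libraries. For Bmp2 and Bmp4 the WT log2 fold changes were 0.52 and 1.22 (limma adjusted p = 0.0796 and 0.115), and the difference between cKO and WT did not pass (0.248 and 0.132).

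Of 22 Wnt target genes, 3 rose and 1, Sp5, fell in cKO (median 0.53, and 1 rose and 1 fell without cKO proximal 1 or cKO proximal 3, and 4 rose and 2 fell with the block), and in WT 5 rose and 4 fell (median 0.44). Ccnd1, cyclin D1, had 632, 1079 and 676 in cKO distal libraries, against 102, 111 and 82.9 in cKO proximal libraries (log2 fold change 2.97 with an SE of 0.35, limma adjusted p = 7.41e-05). Axin2, a feedback inhibitor of Wnt signalling, had 82.6, 122 and 273 in cKO distal libraries, against 46.5, 58.3 and 54.1 in cKO proximal libraries, and its call ended without cKO distal 3, cKO proximal 1 or cKO proximal 3 (adjusted p up to 0.0932). In the stem cell list 2 of 21 rose and 1 fell (14.3% called, median 0.41, and 0 rose and 1 fell without cKO proximal 1, cKO proximal 3 or cKO distal 3, and 5 rose and 2 fell with the block), and in WT 2 rose and 3 fell (median 0.35). The gene that fell was Hopx, a marker of slowly dividing crypt cells (-1.12).

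Cell cycle genes rose in part. Of 40 measured, 14 rose and 1 fell in cKO (median 0.76), and in WT 34 rose and 0 fell (median 1.63). Tk1, thymidine kinase, had 174, 266 and 234 in cKO distal libraries, against 96.9, 119 and 105 in cKO proximal libraries. The difference of the segment effects between cKO and WT passed for 0 of the 40 by limma (19 at an unadjusted p under 0.05, 0 by edgeR and 4 by DESeq2). The cKO count moved when single libraries were left out, with 3 to 6 genes higher without any of cKO distal 2, cKO distal 3 and cKO proximal 1 to 3, and 23 higher without cKO distal 1. The median log2 fold change stayed at 0.62 to 1.03 in these fits, and 17 rose and 1 fell with the block.

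Villus tip genes also moved both ways, with 3 of 25 higher and 6 lower in cKO (median -0.47) and 2 higher and 8 lower in WT (median -0.38). Ada, adenosine deaminase, had 125, 136 and 1276 in cKO distal libraries, against 11559.8, 3699 and 8898 in cKO proximal libraries. Enpp3, an ectoenzyme that splits extracellular nucleotides, had 107, 50.6 and 1612 in cKO distal libraries, against 7400.2, 3350.0 and 8204 in cKO proximal libraries. In both, cKO distal 3 stood far above the other distal libraries and below every proximal one. Xdh, xanthine dehydrogenase, fell by 1.72 on the log2 scale, and Pmp22, a tetraspan membrane protein, rose by 4.27. The list had 2 higher and 3 lower without cKO proximal 1, 1 higher and 4 lower without cKO proximal 3, and 1 higher and 3 lower without cKO distal 2.

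Markers of other cell types were counted in the same way. Of 25 T cell and intraepithelial lymphocyte markers, 14 fell and 0 rose in cKO (median -1.38), and in WT 12 fell and 2 rose (median -1.36). Cd8a, the coreceptor of cytotoxic T cells, had 368, 315 and 183 in cKO distal libraries, against 1636, 848 and 1077 in cKO proximal libraries. Gzmb, the cytotoxic protease granzyme B, had 738, 730.2 and 237 in cKO distal libraries, against 3888, 1726 and 2121 in cKO proximal libraries. The summed level of the list was 3103 to 6415 in cKO distal and 12096 to 27686 in cKO proximal libraries. The count fell to 4 without cKO proximal 1, 9 without cKO proximal 3 and 5 without cKO distal 3. Of 25 B cell and plasma cell markers, 1 fell and 0 rose in cKO (median -0.08), and in WT 21 rose and 0 fell (median 3.2). The summed level was 1466 to 5132 in cKO distal and 2195 to 5760 in cKO proximal libraries, and 40902 to 86826 in WT distal and 10463 to 23830 in WT proximal libraries. The gene that fell in cKO, Spib, a factor of B cells and of M cells, lost its call without cKO distal 2, cKO distal 3, cKO proximal 1 or cKO proximal 3 (adjusted p up to 0.0922), and 2 of the 25 fell with the block.

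Of 23 fibroblast and telocyte markers, 1 rose in cKO (median 0.99), Pdgfrb, a receptor of stromal cells, with 158, 101 and 120.2 in cKO distal libraries, against 27.3, 21.2 and 27 in cKO proximal libraries. With the block, 11 of the 23 rose and 0 fell, and without cKO distal 2, 2 rose. Smooth muscle markers had 3 of 16 higher and 0 lower (median 0.66, 0 without cKO proximal 1, cKO proximal 3 or cKO distal 3, and 6 higher with the block). Endothelial markers had 2 of 16 higher and 1 lower (median 0.48). By limma, edgeR and DESeq2, 0 of 26 myeloid, 13 neuron and glia and 8 erythrocyte markers passed, as did 0 of 12 genes of MHC class II presentation, of which 6 rose with the block, and 0 of 12 mitochondrially encoded mRNAs. At an unadjusted limma p under 0.05 there were 3 neuron and glia markers and 0 of the other 4 lists. Of 15 pancreatic acinar markers 1 fell (median -2), 0 without cKO proximal 3 or cKO distal 2 and 5 with the block. Of 11 stomach and Brunner gland markers, 3 fell and 1 rose (median -2.13, 2 fell and 0 rose without cKO proximal 1, and 6 fell and 1 rose with the block), and the summed level was 46.6 to 78.7 in cKO distal and 259 to 824 in cKO proximal libraries. Pgc, a pepsinogen, had 0 reads in the cKO distal libraries, against 6.06, 8.48 and 13 in cKO proximal libraries (at least 2.78-fold lower). Of 24 immediate early and stress genes, 1 rose and 2 fell (12.5% called, median -0.25), and 0 passed without cKO proximal 1 or cKO distal 2, and 1 fell without cKO proximal 3. The part of these cell types in the lists above was not tested.

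The segment difference in cKO was set against that in WT, which shares none of its libraries. In WT 4137 genes passed (24.1%), 2037 higher and 2100 lower in the distal segment, and 2741 without WT distal 2. Both comparisons called 1229 genes, which is 68.1% of the cKO calls and 29.7% of the WT calls, 1219 of them in the same direction. Across all genes the 2 log2 fold changes had a Pearson r of 0.66, a description over genes that are not independent replicates. Genes called higher distally in WT had a median log2 fold change of 0.4 in cKO, against 1.39 in WT, and 76.9% had the same sign in both. Genes called lower distally in WT had a median of -0.68 in cKO, against -1.26 in WT, and 95.7% had the same sign. For genes called in cKO the WT median was the smaller one. Those called higher distally had 1.58 in cKO and 1.09 in WT, and 94.8% had the same sign. Those called lower had -1.48 in cKO and -1.33 in WT, and 93.4% had the same sign. The genes called in one comparison were chosen on its values, so the smaller median in the other is not a test of a difference.

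**Figure D4:**
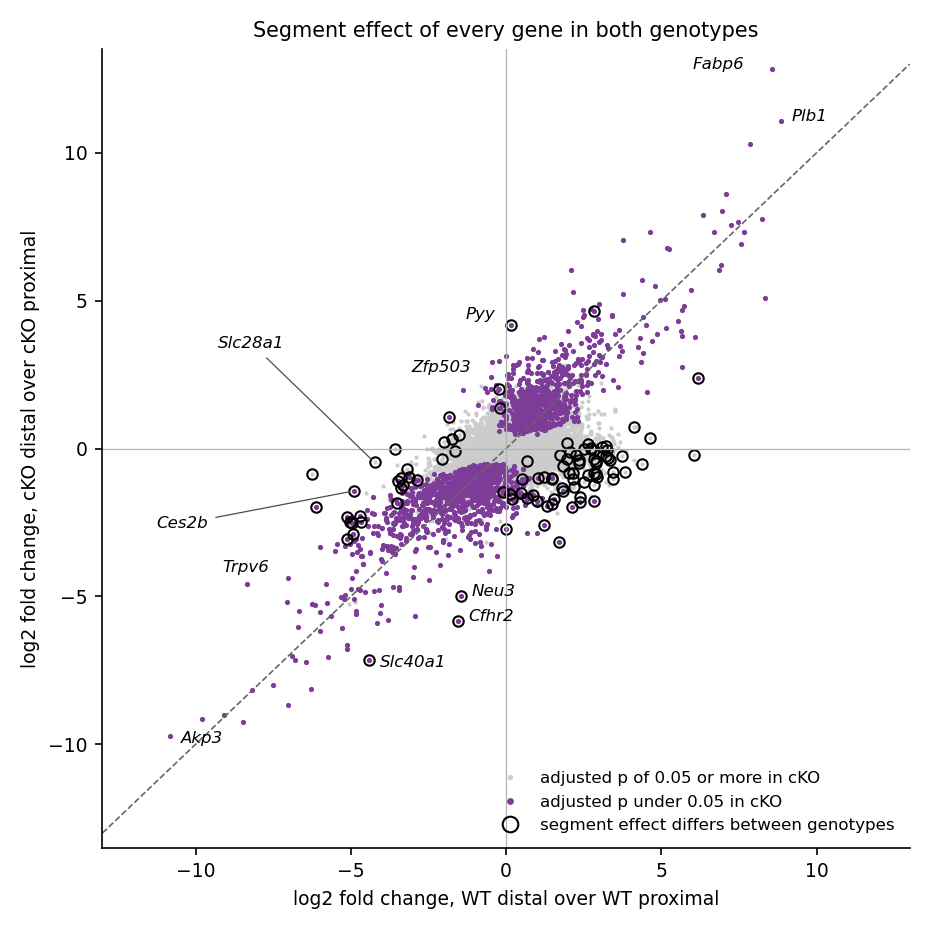
Log2 fold change of each of 17175 genes, cKO distal over cKO proximal (vertical) against WT distal over WT proximal (horizontal), with genes that passed in cKO in purple, the 99 genes whose effect differed between genotypes circled, and equal effects on the dashed line. Fabp6 and Plb1 lie at the top right and Akp3 at the bottom left in both genotypes, and the circled genes lie away from the dashed line.

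The difference between genotypes was tested as an interaction, the cKO minus the WT log2 fold change. It passed for 99 genes (0.576%), 30 higher (0.175%) and 69 lower (0.402%), and for 460 (133 higher and 327 lower) with the shared library number as a block. By edgeR on the recovered reads 59 passed, 29 higher and 30 lower. The 99 fell to 7 without WT distal 2, 9 without cKO distal 1, 24 without WT proximal 1, 28 without cKO proximal 1, 32 without WT proximal 2, 37 without cKO distal 2, 51 without cKO proximal 3 and 64 without cKO proximal 2. The count was 157 without cKO distal 3, 192 without WT proximal 3 and 266 without WT distal 3. It was 2 without both cKO libraries numbered 1, the only libraries with 0 reads of the Y-linked genes named above. Without both cKO libraries numbered 2 it was 4, and without both numbered 3 it was 31, these pairs being chosen after seeing the data. The part of sex in the interaction was not tested. Of the 577 genes called in cKO and not in WT the interaction passed for 14, and of the 2908 called in WT and not in cKO for 55.

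**Figure D5:**
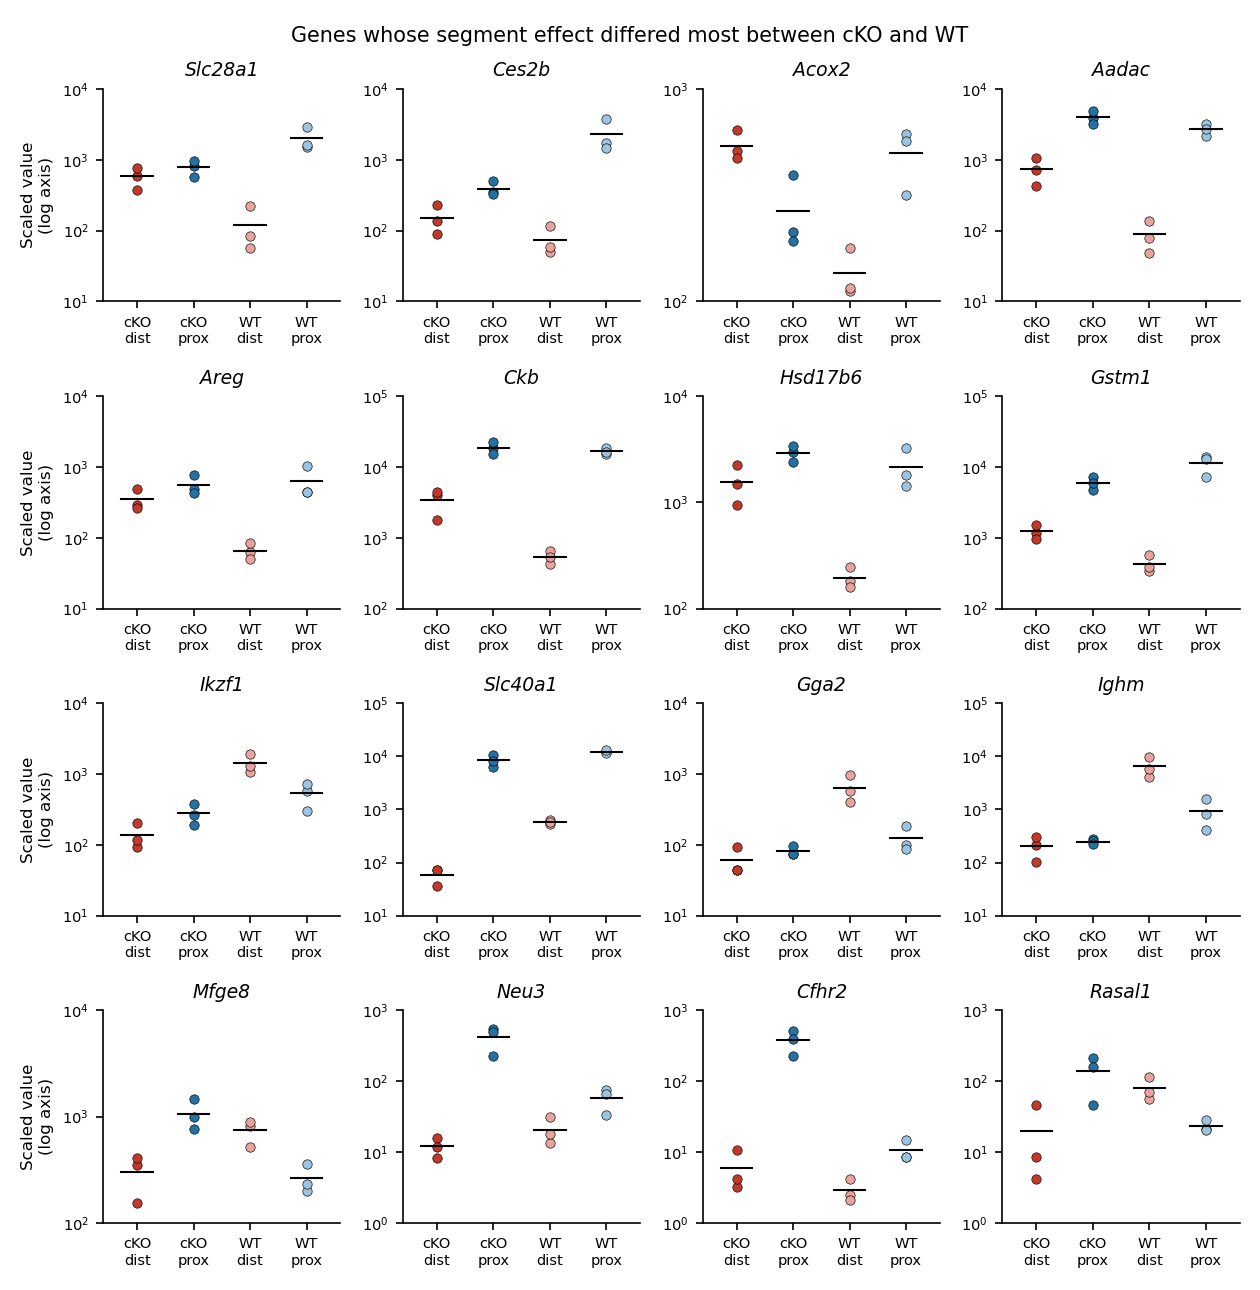
Scaled values (log axes that differ between panels) of 8 genes with large positive and 8 with large negative differences of segment effect, chosen by size among genes at 2 or more in mean log2 CPM in cKO, for cKO distal, cKO proximal, WT distal and WT proximal libraries from left to right, with points for libraries (n = 3 per group) and lines for means. In the first 8 panels the distal to proximal log2 fold change was more positive in cKO than in WT, and in the last 8 more negative.

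The interaction calls of 2 genes named here held without any 1 of the 12 libraries (Pyy and Slc40a1, highest adjusted p = 0.049 and 0.049). Pyy averaged 74.7 ± 14.4 in cKO distal and 3.55 ± 2.57 in cKO proximal libraries, and 269 ± 98.1 in WT distal and 235 ± 45.4 in WT proximal libraries (SD, n = 3 each, interaction 4.02, SE 0.53, limma adjusted p = 0.0117). Its log2 fold change was 4.18 in cKO and 0.16 in WT (limma adjusted p = 6.6e-06 and 0.806). Slc40a1 averaged 59.5 ± 20.2 in cKO distal and 8485 ± 2187 in cKO proximal libraries, and 578 ± 47.2 in WT distal and 12264 ± 709 in WT proximal libraries (interaction -2.76, SE 0.35, adjusted p = 0.0117).

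Among genes at 2 or more in mean log2 CPM in cKO, the 8 largest positive differences were in genes that were lower distally in WT. Ces2b, a carboxylesterase, averaged 152 ± 73.1 in cKO distal and 389.5 ± 93.5 in cKO proximal libraries, and 74.8 ± 35.1 in WT distal and 2326 ± 1263 in WT proximal libraries (SD, n = 3 each). Slc28a1, a nucleoside transporter, averaged 583 ± 201 in cKO distal and 792 ± 199.5 in cKO proximal libraries, and 121 ± 88.9 in WT distal and 2024 ± 759 in WT proximal libraries. Aadac, a lipid and drug deacetylase, averaged 744 ± 322 in cKO distal and 3979 ± 870.5 in cKO proximal libraries, and 88.6 ± 45.4 in WT distal and 2688 ± 522 in WT proximal libraries. The others of this direction were Acox2, a peroxisomal bile acid oxidase, Areg, the EGF receptor ligand amphiregulin, Ckb, a creatine kinase, Hsd17b6, a steroid dehydrogenase, and Gstm1. Their log2 fold changes in cKO and in WT were 1.08 and -1.85 for Acox2, -0.69 and -3.19 for Areg, -2.53 and -4.97 for Ckb, -0.99 and -3.4 for Hsd17b6 (limma adjusted p in cKO 0.07, and 0.00602 with the block), and -2.28 and -4.69 for Gstm1.

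The 8 largest negative differences held genes with a steeper fall in cKO and genes that were higher distally in WT. Mfge8, a protein that tags dying cells for uptake, had 348, 155 and 404 in cKO distal libraries, against 993, 763 and 1448 in cKO proximal libraries, and averaged 739.5 ± 196 in WT distal and 264 ± 84.8 in WT proximal libraries (SD, n = 3 each). Neu3, a sialidase of gangliosides, had 15.9, 8.3 and 11.7 in cKO distal libraries, against 547, 228 and 496 in cKO proximal libraries, and averaged 20.7 ± 9.05 in WT distal and 58.1 ± 21.5 in WT proximal libraries. Cfhr2, a complement factor H relative, had 3.18, 4.15 and 10.6 in cKO distal libraries, against 225, 505 and 398 in cKO proximal libraries, and averaged 2.88 ± 1.07 in WT distal and 10.5 ± 3.51 in WT proximal libraries. Neu3 and Cfhr2 fell in both genotypes, whereas Mfge8 fell in cKO and rose in WT. The others were Slc40a1, given above, the B cell genes Ighm, the IgM heavy chain, and Ikzf1, a lymphocyte factor, and Gga2, a Golgi adaptor, and Rasal1, a Ras GTPase activator. The log2 fold changes in cKO and in WT were -0.41 and 2.89 for Ighm, -1.03 and 1.48 for Ikzf1 (adjusted p in cKO 0.094, and 0.0343 with the block), -0.47 and 2.34 for Gga2, and -3.14 and 1.71 for Rasal1. Of the 25 B cell and plasma cell markers, 5 passed with a lower segment effect in cKO than in WT and 0 with a higher one by limma, and 2 and 0 by edgeR and 11 and 0 by DESeq2 (20 at an unadjusted limma p under 0.05). Each interaction call named in these paragraphs other than those of Pyy and Slc40a1 was lost without at least 1 of the 12 libraries, in most cases WT distal 2 or cKO distal 1.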

How the data were processed

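Bulk RNA libraries of small intestine were made with Trizol and the Ovation RNA-Seq System V2, per the labels' protocols. STAR, mm10 and DESeq2 1.28.1 are named in the submitters' processing notes. The authors' deposited table holds a scaled signal per gene and library, and all 206100 values were whole multiples of their column's minimum within 0.001 of that step, so each is a read count plus 1 divided by a size factor, and whole reads were recovered from 100% of them. The authors' own log2 fold changes, p-values and test scores in the deposited table were not used. Totals were 15225731 to 17722756 reads in cKO distal and 16661259 to 17388612 in cKO proximal libraries.

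Limma 3.58.1 (R 4.3.3) with a variance trend was fitted to log2(value + 1) over 12 libraries as 4 group means, with Benjamini-Hochberg adjustment over 17175 genes and a threshold of 0.05. A filter (a value of at least 1 in 3 libraries) removed 0 genes. EdgeR 4.0.16 on the recovered reads, run as an alternative, called 1943 genes in cKO, and DESeq2 1.42.0 was another. On simulated counts for cKO distal against cKO proximal over 17175 genes, limma found 36% of 2-fold and 81% of 4-fold changes. Only 100 genes were changed at each size, low genes were left out and libraries were not paired, so the rates may differ in the real data. Other alternatives were the pseudocount, low-value filters, TMM, voom, a mitochondrial covariate, a replicate block and leaving out libraries. The labels give a distal and a proximal library one number (KO1-pro, KO1-dis). Deviations of same-numbered cKO libraries from their group means correlated at 0.158, 0.215 and 0.323, and those of differently numbered ones at -0.227 to 0.0634. Deviations within a group sum to 0, so these correlations depend on one another. The numbers were taken to pair libraries in the replicate block, whereas the main fit held no term for the pairing. SE and p of single genes come from that unpaired fit unless the block is named.

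The genes named were Bmpr1a, the 12 largest changes each way among passing genes without overlap and at 2 or more in mean log2 CPM (predicted and clone names left out), up to 5 passing members per list by p, all passing bile acid, B12 and transcription factor genes, and the 8 largest interactions each way. Some named genes are not reported here, though the list counts hold them. Members and lists were chosen with earlier results of these data known. A fold against a group at 0 reads was set against a floor of 3 reads per library, which covers counting error only.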

Additional observations from a re-analysis of the deposited data

Results flagged for a closer look

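For 24 named genes the distal over proximal log2 fold change in cKO minus that in WT passed the interaction test (limma adjusted p under 0.05 over all genes), and the values below are these differences. Of these, 8 were named above for the segment effect or among lists, with 4.02 for Pyy, -2.76 for Slc40a1, 2.25 for Zfp503, 2.05 for Cck, 2.05 for Pdk4, 2.41 for Gstm1, -2 for Spib and 2.81 for Pgc. The difference was 2.19 for Gstm6, a glutathione transferase, and 2.07 for Acaa1b, a peroxisomal thiolase. The calls of Pyy and Slc40a1 held without any 1 of the 12 libraries. That of Gstm6 was lost without WT distal 2, that of Acaa1b without cKO distal 1, that of Gstm1 without WT proximal 1, WT proximal 2, cKO distal 1 or cKO proximal 1, and that of Zfp503 without WT distal 2, WT proximal 2, cKO distal 1, cKO distal 2 or cKO proximal 1. The call of Spib was lost without WT distal 2, WT proximal 2, cKO distal 1, cKO distal 2, cKO proximal 1 or cKO proximal 3, that of Pdk4 without WT distal 2, WT proximal 1, WT proximal 2, cKO distal 1, cKO proximal 1, cKO proximal 2 or cKO proximal 3, and that of Cck without WT distal 1, WT distal 2, WT proximal 1, WT proximal 2, cKO distal 1, cKO distal 2, cKO proximal 1 or cKO proximal 2. The Pgc call was lost without WT distal 1, WT distal 2, WT proximal 1, WT proximal 2, WT proximal 3, cKO distal 1, cKO distal 2, cKO distal 3, cKO proximal 1, cKO proximal 2 or cKO proximal 3.

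Differences toward a more positive effect in cKO were 3.76 for Slc28a1, 3.47 for Ces2b, 2.94 for Acox2, 2.52 for Aadac, 2.5 for Areg, 2.43 for Ckb and 2.41 for Hsd17b6. The calls of Slc28a1, Ces2b and Acox2 were lost without WT distal 2 or cKO distal 1. That of Ckb was lost without WT distal 1, WT distal 2, WT proximal 1, WT proximal 2, cKO distal 1, cKO proximal 1 or cKO proximal 3, and that of Hsd17b6 without WT distal 2, WT proximal 1, WT proximal 2, cKO distal 1, cKO distal 2, cKO proximal 1, cKO proximal 2 or cKO proximal 3. That of Aadac was lost without WT distal 1, WT distal 2, WT proximal 1, WT proximal 2, cKO distal 1, cKO distal 3, cKO proximal 1, cKO proximal 2 or cKO proximal 3, and that of Areg without WT distal 1, WT distal 2, WT proximal 1, WT proximal 2, cKO distal 1, cKO distal 2, cKO distal 3, cKO proximal 1 or cKO proximal 2.

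Differences toward a more negative effect in cKO were -4.85 for Rasal1, -4.26 for Cfhr2, -3.53 for Neu3, -3.37 for Mfge8, -3.3 for Ighm, -2.82 for Gga2 and -2.51 for Ikzf1. The call of Mfge8 was lost without WT distal 2, and that of Cfhr2 without WT distal 2 or cKO distal 1. That of Neu3 was lost without WT distal 2, WT proximal 1, cKO distal 1, cKO distal 2, cKO proximal 1 or cKO proximal 3. Those of Ighm and Gga2 were lost without WT distal 2, WT proximal 1, WT proximal 2, cKO distal 1, cKO distal 2, cKO proximal 1, cKO proximal 2 or cKO proximal 3. That of Rasal1 was lost without WT distal 1, WT distal 2, WT proximal 1, WT proximal 2, cKO distal 1, cKO distal 2, cKO proximal 2 or cKO proximal 3, and that of Ikzf1 without WT distal 1, WT distal 2, WT proximal 1, WT proximal 2, cKO distal 1, cKO distal 2, cKO proximal 1, cKO proximal 2 or cKO proximal 3.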

How the results depend on the processing

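The cKO segment count of 1806 genes was 1658 to 2035 under both other pseudocounts, a filter at a mean CPM of 1, TMM, voom, edgeR, the mitochondrial covariate and a fit of only the 6 cKO libraries. With the replicate block it was 2601. DESeq2 gave 2762 (1200 higher and 1562 lower), and the block with edgeR 2788. Without 1 cKO library it was 1031 to 1545, and without both numbered 1, 2 or 3 it was 862, 975 or 964, the pairs numbered 2 and 3 chosen after seeing the data. The interaction count of 99 was 90 to 137 under both pseudocounts, TMM and the mitochondrial covariate. It was 58 with a filter at a mean CPM of 1, 20 with voom, 59 with edgeR, 594 with DESeq2, 460 with the replicate block and 413 with the block and edgeR. Without 1 library it was 7 to 266, and without both cKO libraries numbered 1, 2 or 3 it was 2, 4 or 31. The WT count of 4137 was 2741 to 3924 without 1 WT library and 3614 to 5026 otherwise. The cause of these shifts was not tested, and fits without libraries have fewer samples. Over the named genes, 3210 alternative cKO values kept direction and side of the threshold, 281 fell short of it, 6 newly passed and 2 turned, both of Ighm, whose log2 fold change of -0.41 was -0.74 to 0.030 without 1 cKO library (0.030 without cKO distal 2) and 0.050 without both numbered 2. Of the interaction values 265 kept both and 151 fell short. Both tallies include the fit with no filter, which repeats the main fit because the filter removed no gene. The replicate block in limma changed no other call of a named gene than those of Hsd17b6 and Ikzf1 in cKO. With limma's simulated recovery of 36% of 2-fold changes, smaller differences may be missed at 3 libraries a group.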
